A study of Mus musculus with 2 samples.

Results

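The Cxcl2 high knockout large macrophages were 1548 cells of the peritoneal lavage of Ankrd22-/- mice in which at least 5 transcripts of the chemokine gene Cxcl2 were counted. They were 29.6% of the 5236 large macrophages of the knockout library (exact binomial 95% interval 28.3 to 30.8%) and a small part of the 13021 barcodes of both libraries. A cell counted as a large macrophage if it had at least 500 genes, at most 10% mitochondrial transcripts, at least 8000 unique molecular identifiers (UMIs, 1 per captured transcript), at least 5 UMIs of Prg4, and under 5 UMIs of H2-Aa, H2-Ab1, H2-Eb1 and Cd74 together per 10000. The cells set against them were the 2113 large macrophages of the same library without a Cxcl2 UMI (40.4%). The remaining 1575 cells held 1 to 4 Cxcl2 UMIs.

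The study sorted F4/80+ cells, the macrophages of the lavage, from Ankrd22-/- mice, a CRISPR/Cas9 knockout, and from Ankrd22+/+ mice, and made 1 single-cell library of each genotype. No stimulation is given in the labels, and neither age, strain nor the number of animals is stated. Within the knockout library all cells share genotype, sort and capture, so that a comparison of its cells with and without Cxcl2 leaves out the difference between the libraries. Cells of 1 library are not replicates. No test was made for any value below, every value describes these libraries, and all intervals cover counting error only.

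Cxcl2 and its neighbour Cxcl1 encode chemokines that draw neutrophils through the receptor CXCR2. Macrophages induce them rapidly after a danger signal, through NF-kB and MAP kinase pathways, together with other immediate early genes such as Fos, the Nr4a nuclear receptors and the feedback inhibitors Zfp36 and Dusp1. Large peritoneal macrophages are the resident, GATA6-dependent cells of the cavity.

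The promoters of the chemokine that defines the cells and of the genes with the highest ratios beside it are shown because all of them hold an NF-kB motif. Of 32851 mouse promoters in RefSeq (GRCm38.p6, 250 bases before to 50 after a gene's start), 1480 (4.51%) held the general NF-kB consensus on either strand. A stricter form of it, with A at position 4 and T at positions 6 to 8, was in 135 (0.411%). The promoters of Cxcl2, Cxcl1 and Il6 held both forms. They lie on chromosome 5, plus strand, and the matched bases are in capitals below. The match begins 97 bases before the start of Cxcl2 (chr5:90903649-90903948), 71 bases before that of Cxcl1 (chr5:90890995-90891294) and 44 bases before that of Il6 (chr5:30012864-30013163).
Cxcl2: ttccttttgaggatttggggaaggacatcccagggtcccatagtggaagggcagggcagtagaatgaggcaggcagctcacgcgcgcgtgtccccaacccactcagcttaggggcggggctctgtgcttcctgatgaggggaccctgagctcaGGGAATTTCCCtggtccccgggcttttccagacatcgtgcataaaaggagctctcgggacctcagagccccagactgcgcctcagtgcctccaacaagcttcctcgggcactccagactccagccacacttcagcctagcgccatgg
Cxcl1: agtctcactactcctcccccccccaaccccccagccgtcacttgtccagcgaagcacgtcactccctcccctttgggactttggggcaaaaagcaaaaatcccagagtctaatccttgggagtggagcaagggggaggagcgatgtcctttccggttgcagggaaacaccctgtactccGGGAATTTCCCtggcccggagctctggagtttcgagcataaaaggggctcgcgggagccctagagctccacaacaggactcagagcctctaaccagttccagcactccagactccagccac
Il6: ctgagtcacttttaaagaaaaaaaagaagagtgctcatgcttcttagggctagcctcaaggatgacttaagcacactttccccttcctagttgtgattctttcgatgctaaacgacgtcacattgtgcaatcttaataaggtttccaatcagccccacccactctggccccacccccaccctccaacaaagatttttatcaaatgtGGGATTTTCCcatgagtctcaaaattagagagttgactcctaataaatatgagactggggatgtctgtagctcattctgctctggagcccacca
The site is GGGAATTTCCC in Cxcl2 and Cxcl1, where 2 matches on opposite strands overlap, and GGGATTTTCC in Il6. The promoter of Il6 also holds 1 match to the AP-1 motif TGANTCA, which 7.81% of all promoters hold. A match describes the letters only and shows no binding.

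The depth of both libraries was high. The knockout library held 6706 barcodes and 110956482 UMIs, and the wild type library 6315 barcodes and 96869041 UMIs, with medians of 15790.5 and 14569 UMIs per barcode. The same filters gave 4193 large macrophages in the wild type library. Ankrd22 itself had 0 UMIs in both libraries and cannot check the genotype labels, and 15 barcode sequences occurred in both libraries. The Cxcl2 high cells carried the markers of large macrophages: Gata6, the factor that maintains them, was at 174 CPM (UMIs of a gene per 1000000 UMIs of the set) in both knockout sets of equal depth described below, and Adgre1, which encodes F4/80, at 645 CPM in Cxcl2 high and 635 CPM in Cxcl2 zero cells.

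Cxcl2 transcripts were concentrated in few knockout cells. The high cells held 5 UMIs at the lowest, a median of 14, an upper quartile of 28 and 650 at the highest. They carried 37212 of the 40155 Cxcl2 UMIs of the knockout large macrophages (92.7%), and the 524 cells with the most carried 66.2%. In the wild type library the median cell held 119 Cxcl2 UMIs, 4067 of 4193 cells (97.0%) held at least 5, and 4 cells held none. The 419 wild type cells with the most carried 27.1% of that library's Cxcl2. The members were chosen by these Cxcl2 UMIs, so the values are a description.

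The share of Cxcl2 high cells, which the rule sets by a count of UMIs, was larger in cells read more deeply. It was 14.6% in the 1745 shallowest knockout large macrophages (up to 14180 UMIs), 26.7% up to 19343 UMIs and 47.4% in the 1746 deepest. What counting and what other differences between deep and shallow cells contribute to this was not tested. With each cell thinned to 8000 UMIs, Cxcl2 averaged 3.15 UMIs per knockout cell with a variance 21.1 times the mean, against 66.9 UMIs and 32.6 times in wild type cells. Gata6, thinned alike, had a variance 1.27 times its mean in knockout and 1.36 times in wild type cells. Free RNA adds UMIs to cells that do not express a gene. Among B cell barcodes, which were shallower (knockout median 3531 UMIs, wild type median 4562 UMIs), 4 of 21 knockout and 23 of 27 wild type barcodes (85.2%) held a Cxcl2 UMI. At least 5 were held by 0 of 21 knockout B cell barcodes, which allows a share of up to 14.3% by 3 counts of 21 (exact binomial upper limit 16.1%), and by 4 of 27 in the wild type library (14.8%).

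**Figure D1:**
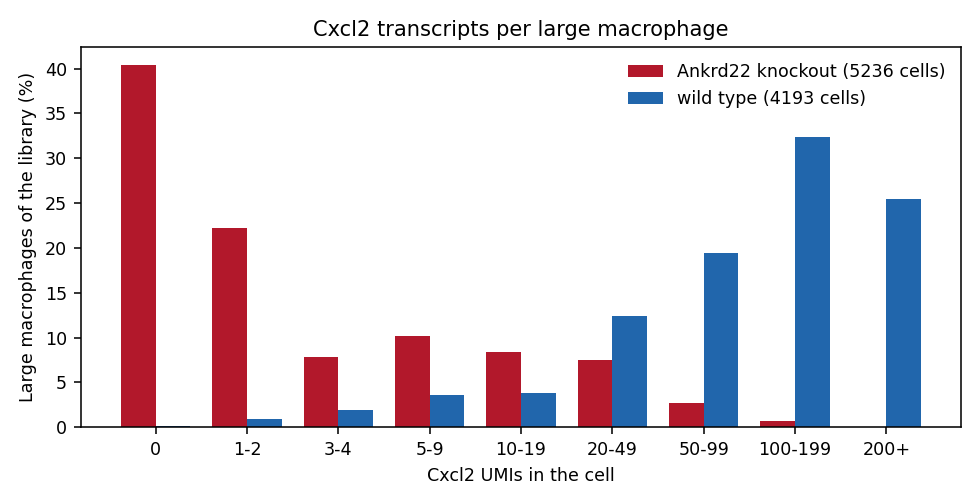
Share of the large macrophages of each library (%) by the number of Cxcl2 UMIs in the cell, for 5236 Ankrd22 knockout (left bars) and 4193 wild type cells (right bars). Knockout cells pile up at 0, with 29.6% at 5 or more, and wild type cells at 100 or more.

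Each Cxcl2 high cell was paired with the zero cell nearest in UMI total, without reuse. Because high cells were deeper, the 1548 pairs still differed, with medians of 19820 UMIs in high and 16489.5 in zero cells. Pairs within 2% of the same total, an added comparison called close pairs here, held 1186 cells a side with medians of 17844.5 UMIs in high and 17829 in zero cells. UMIs were summed over each set and scaled to CPM, and ratios are log2 of CPM plus 1, high over zero. The intervals given with them are exact for the ratio of the sums without the added CPM. A gene was measured at 20 CPM or more in the higher set.

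Of 5044 genes measured in the 1548 pairs, Cxcl2 high cells had 10 (0.198%) higher and 1 (0.0198%) lower by 2-fold or more. At 1.5-fold the counts were 43 higher (0.852%) and 1 lower (0.0198%). In close pairs 3 of 5008 genes (0.0599%) were past 2-fold on the higher side and 1 (0.02%) on the lower, and at 1.5-fold 21 (0.419%) were higher and 1 (0.02%) lower. The median gene was at 0.04 in all and 0.02 in close pairs. Of all measured genes, 63.0% were above 0 in all pairs and 58.7% in close pairs. Since Cxcl2 chose the cells, genes that vary with it are described here and not tested. The gene on the lower side was Hbb-bs, a haemoglobin gene, for which 1 cell held 77.7% of the UMIs of the zero set. It reached 20 CPM only in the zero set, so no higher direction was possible for it. Of the 21 higher genes, Cxcl1, Il6, Ccrl2, Nr4a2, Ccl2, Pde4b, Hcar2 and Hells reached 20 CPM only in the high set. No other direction was possible for these genes, and the list counts below include them.

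Chemokine and cytokine genes led the list. Cxcl1, which recruits neutrophils through the same receptor as Cxcl2, was at 103 CPM in Cxcl2 high and 9.11 CPM in Cxcl2 zero cells of the close pairs, a log2 ratio of 3.36 (3.29 to 3.72). Il6, the cytokine of the acute phase response, was at 23.9 CPM in high and 6.504 CPM in zero cells (1.73, 1.61 to 2.16). The counting intervals of both genes were far apart, at 98.96 to 107 CPM against 7.89 to 10.5 CPM for Cxcl1, and 21.9 to 26.0 CPM against 5.48 to 7.67 CPM for Il6. Osm, or oncostatin M, a cytokine of the Il6 family, was at 76.9 CPM in high and 44.0 CPM in zero cells (0.79). Ccl2, which attracts monocytes, was at 28.4 CPM in high and 16.5 CPM in zero cells (0.75). Of 5 measured cytokine and growth factor genes, 2 (Il6 and Osm) were at least 1.5-fold higher and the median was 0.08. Of 7 measured chemokine genes other than the neutrophil attractants, 1 (Ccl2) was, with a median of 0.03. Cxcl13, which attracts B cells, was at 587 CPM in high and 671 CPM in zero cells (-0.19).

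Most Cxcl2 high cells held no Cxcl1 UMI at equal depth. With cells thinned to 8000 UMIs, 29.2% of high cells in close pairs (26.6 to 31.9%) held a Cxcl1 UMI, against 5.31% of zero cells (4.11 to 6.75%). Unthinned, the shares were 40.6% of high and 10.8% of zero cells. Il6 was seen in 12.9% of high and 4.72% of zero cells after thinning, 21.5% and 8.18% before it. A single high cell held 4.06% of the Il6 and 4.01% of the Cxcl1 UMIs of the high set of 1548, so neither level rested on 1 cell.

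Some transcription factors of the immediate early response passed 1.5-fold, by smaller ratios than Cxcl1 and Il6. Fos, a subunit of AP-1, was at 1381 CPM in Cxcl2 high and 772 CPM in Cxcl2 zero cells (0.84, 0.81 to 0.87). The orphan nuclear receptor genes Nr4a1 and Nr4a2 were at 143 and 21.3 CPM in high and at 85.2 and 11.8 CPM in zero cells, with ratios of 0.74 and 0.80. Atf3, a stress-induced repressor of inflammatory genes, was at 114 CPM in high and 72.9 CPM in zero cells (0.64). Ier3, an early response gene that affects cell survival, was at 364 CPM in high and 173 CPM in zero cells, and its ratio of 1.07 (1.02 to 1.13) was the third past 2-fold in close pairs. In the list of EGR, NR4A and KLF factors and other immediate early genes, 3 of 15 measured members were at least 1.5-fold higher and 0 lower, with a median of 0.43. In the list of AP-1 and ATF factors 2 of 10 were, with a median of 0.12. All 10 were above 0, where 58.7% of all measured genes were. Junb, another AP-1 subunit, was at 787 CPM in high and 672 CPM in zero cells (0.23). Egr1, a zinc finger factor, was at 369 CPM in high and 251 CPM in zero cells (0.55), short of 1.5-fold. The 21 genes also held the factor genes Nfil3 (41.5 CPM in high and 23.9 CPM in zero cells) and Ets2 (33.5 and 20.02 CPM), which were named after their values were seen.

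A few feedback regulators passed 1.5-fold, and most did not. Dusp1, a phosphatase that switches off MAP kinases, was at 1248 CPM in Cxcl2 high and 806 CPM in Cxcl2 zero cells (0.63, 0.60 to 0.66). Zfp36, or tristetraprolin, which destabilises cytokine mRNAs including that of Cxcl2, was at 485 CPM in high and 313 CPM in zero cells (0.63). These were the 2 of 8 measured phosphatase and mRNA decay genes at 1.5-fold or more, with a list median of 0.21. Trib1, a pseudokinase, was at 57.2 CPM in high and 33.8 CPM in zero cells (0.74), and Sgk1, a kinase induced by serum and glucocorticoids, at 43.3 and 27.8 CPM (0.62). Both belong to the list of glucocorticoid and stress response genes, of which 2 of 9 were at least 1.5-fold higher with a median of 0.23. Of 13 measured genes of NF-kB feedback, 11 were above 0, where 58.7% of all measured genes were, and the median was 0.12. The 1 gene at least 1.5-fold higher was Ccrl2, an atypical receptor that binds chemerin. It was at 32.2 CPM in high and 15.7 CPM in zero cells (0.99). Nfkbia, the classical inhibitor of NF-kB, was at 501 CPM in high and 392 CPM in zero cells (0.36). Members of that list below the measuring limit were not counted. Among them were Tnfaip3 (1.38), Marcksl1 (0.24), Malt1 (-0.07) and Gadd45b (-0.25).

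Of the cyclic AMP and G protein regulators, 3 of 11 measured genes passed 1.5-fold. Rgs1, which shortens G protein signals, was at 257 CPM in Cxcl2 high and 158 CPM in Cxcl2 zero cells (0.70). Pde4b, which degrades cyclic AMP, was at 25.6 CPM in high and 14.8 CPM in zero cells (0.75), and Gpr65, a receptor that senses protons, at 36.0 and 22.9 CPM (0.63). The median of the list was 0.22, with 8 of 11 genes above 0, where 58.7% of all measured genes were. Hcar2, the receptor for niacin and ketone bodies, was named after its values were seen and was at 22.5 CPM in high and 13.4 CPM in zero cells (0.71). Hdc, the enzyme that makes histamine and one of the markers given for these cells, was at 114 CPM in high and 88.9 CPM in zero cells, with a ratio of 0.35 (0.27 to 0.44) that did not reach 1.5-fold. Mast cells and basophils also express Hdc, and 0 of 12 of their marker genes had a UMI in Cxcl2 high cells.

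**Figure D2:**
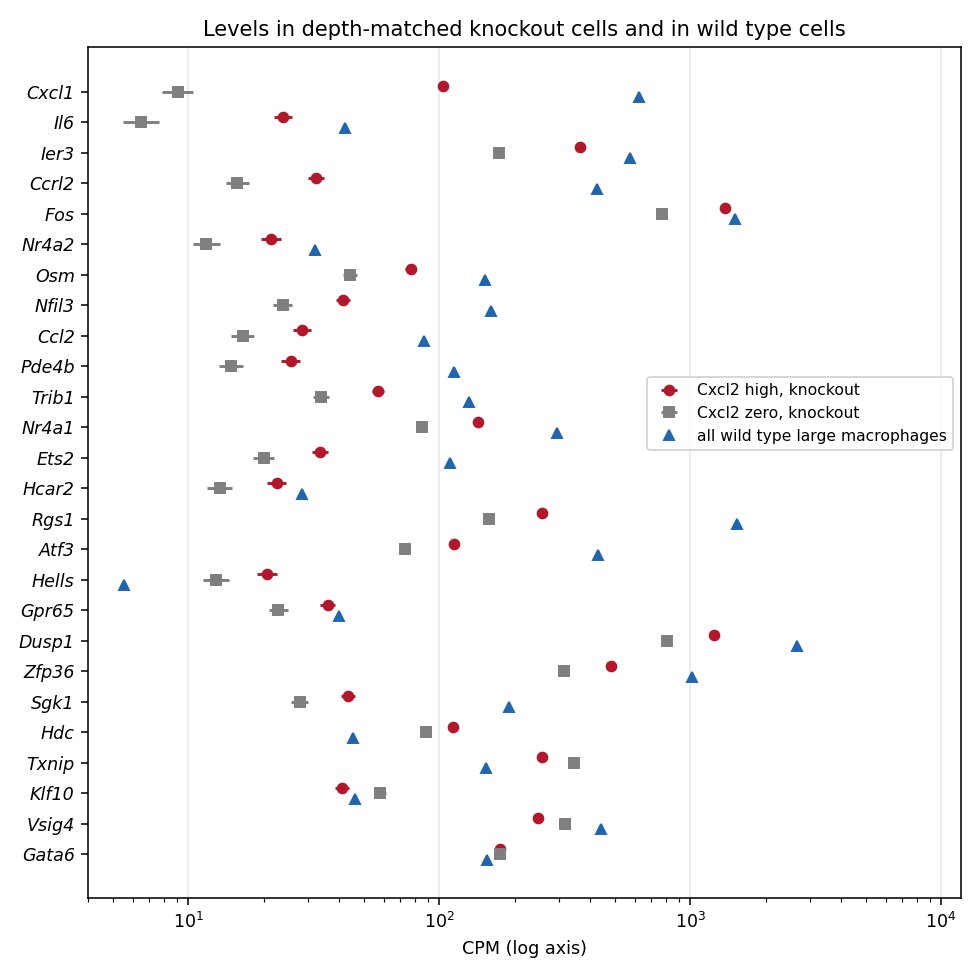
CPM on a log axis of the 21 genes at least 1.5-fold higher in close pairs, and of Hdc, Txnip, Klf10, Vsig4 and Gata6. Red circles are 1186 Cxcl2 high and grey squares 1186 Cxcl2 zero knockout cells with 95% counting intervals, and blue triangles all 4193 wild type large macrophages. For 20 of the 21 genes, all but Hells, the triangle lies to the right of the circle.

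Genes on the lower side moved less, and none but the haemoglobin gene passed 1.5-fold. Txnip, which inhibits thioredoxin and is sensitive to glucose, was at 257 CPM in Cxcl2 high and 345 CPM in Cxcl2 zero cells (-0.42, -0.47 to -0.37). Klf10, a factor induced by TGF-beta, was at 41.1 CPM in high and 58.0 CPM in zero cells (-0.49), and Vsig4, a complement receptor of resident macrophages, at 247 and 317 CPM (-0.36). Cirbp, an RNA-binding protein gene induced by cold, was at 42.3 CPM in high and 54.8 CPM in zero cells (-0.37). Of the 27 measured lysosomal genes, 4 were above 0, where 58.7% of all measured genes were. Their median was -0.09 and their range -0.17 to 0.11. Prg4, which the rule used, was at 9292 CPM in high and 11056 CPM in zero cells.

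Identity and other programmes stayed within 1.5-fold. Among 25 measured genes of large macrophage identity 0 were past it in either direction, with a median of -0.03 and a range of -0.36 for Vsig4 to 0.40 for Thbs1. The same held for small and recruited macrophage genes (4 measured, median -0.09), alternative activation (7, 0.03), type I interferon response (10, 0.01), complement (12, -0.04), phagocytosis and scavenging (13, -0.04), and cholesterol and lipid handling (12, -0.01). Heat shock chaperones had 14 of 16 genes above 0 and a median of 0.16, and mitochondrially encoded genes 12 of 12 and 0.13. Of all measured genes, 58.7% were above 0. Again 0 genes of these lists were past 1.5-fold. The mitochondrial share of a cell's UMIs had a median of 1.52% in high and 1.44% in zero cells of the close pairs. Actin and adhesion (32 measured, median -0.00), hypoxia and glycolysis (14, 0.03), the unfolded protein response (20, 0.06), eicosanoid synthesis (10, 0.03), amine and arginine metabolism (8, 0.10), pattern recognition (13, 0.09), autophagy and NRF2 (18, 0.02) and nuclear-retained RNAs (4, -0.10) had 0 past 1.5-fold too. Spp1, or osteopontin, and Chil3, a chitinase-like protein gene, were at 612 and 384 CPM in high and at 712 and 356 CPM in zero cells.

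The promoters of the 21 genes were searched for 3 motifs on both strands. Of 21 genes, 16 had a promoter in the table, and 7 of these held the general NF-kB consensus in at least 1 promoter (Cxcl1, Il6, Ier3, Ccrl2, Fos, Pde4b and Nr4a1). The stricter form, which had been searched first, was in 2 of the 16 (Cxcl1 and Il6, printed above), and the general consensus was taken up with that result known, so the count depends on the form searched. Ccrl2 and Pde4b have 3 and 4 promoters in the table, with a match in 1 of them each. The AP-1 motif TGANTCA was in 1 (Il6), and the cyclic AMP response element TGACGTCA in 1 (Dusp1). The general consensus was in 4.51%, the stricter form in 0.411%, TGANTCA in 7.81% and TGACGTCA in 1.79% of all promoters. Among the 5119 promoters of measured genes the general consensus was in 5.20%, TGANTCA in 4.98% and TGACGTCA in 3.28%. These shares are per promoter and the counts above per gene. A gene with several promoters, such as Sgk1 with 6, had more places for a match. Osm, Ccl2, Trib1, Hcar2 and Rgs1 had no entry.

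Cell cycle genes behaved differently from activation genes under the 2 kinds of matching. In the 1548 pairs, 8 of the 10 genes past 2-fold were cell cycle or replication genes. Top2a, which untangles DNA in mitosis, was at 40.8 CPM in Cxcl2 high and 14.1 CPM in Cxcl2 zero cells (1.47), and Mki67, the proliferation marker Ki-67, at 43.9 and 15.97 CPM (1.40). In close pairs Top2a was at 25.3 CPM in high and 16.9 CPM in zero cells (0.56) and Mki67 at 27.8 and 19.4 CPM (0.50). Of the cell cycle list, 10 of 13 measured genes were at least 1.5-fold higher in all pairs (median 0.85) and 0 of 11 in close pairs (median 0.28). The one such gene among the 21 was Hells, a chromatin remodeller of dividing cells, at 20.7 CPM in high and 12.9 CPM in zero cells of the close pairs (0.64). Cells with at least 3 UMIs over 8 mitotic genes were 9.63% of high and 2.78% of zero cells in all pairs, and 5.90% (4.63 to 7.40%) and 3.54% (2.56 to 4.76%) in close pairs. The 362 high cells without a close partner were deep, with a median of 28414.5 UMIs, and 21.8% of them were cycling. Cxcl1, Il6, Ier3, Ccrl2 and Fos had larger ratios in close pairs than in all pairs, while Osm (0.79 in close and 0.92 in all pairs), Nr4a2 (0.80 and 0.92) and Hdc (0.35 and 0.37) had smaller ones.

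**Figure D3:**
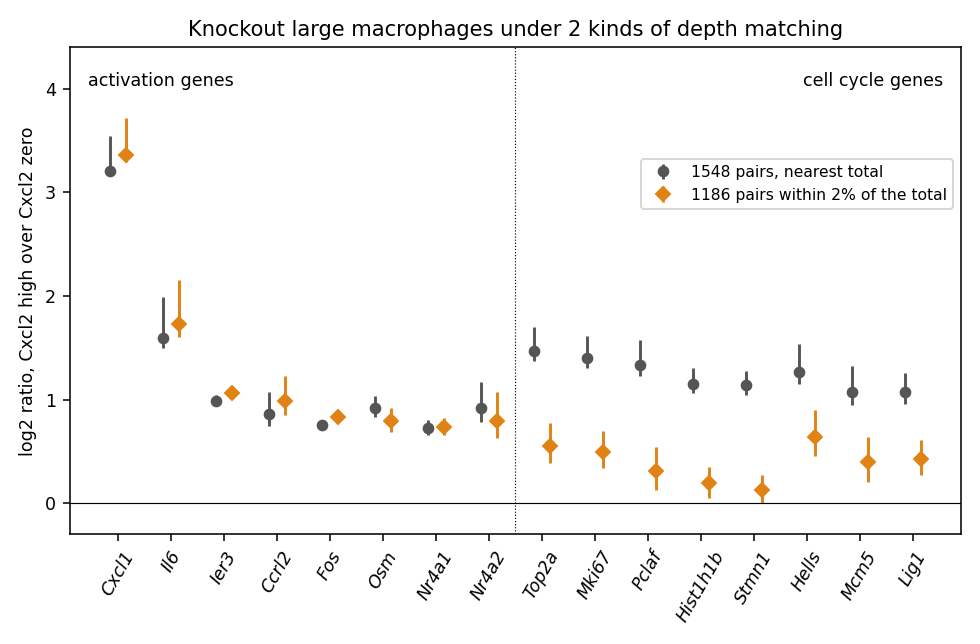
Log2 ratio, Cxcl2 high over Cxcl2 zero knockout cells, in 1548 pairs nearest in UMI total (grey circles) and in 1186 pairs within 2% of the total (orange diamonds), with 95% counting intervals of the plain ratio. The 8 activation genes on the left differ little between the 2 kinds of pairs, and the 8 cell cycle genes on the right are lower in the closer pairs, with Top2a at 0.56 and Stmn1 at 0.13.

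Around the threshold of 5 UMIs the activation genes differed in direction. In the 149 cells with exactly 5 Cxcl2 UMIs and the 190 with exactly 4, Cxcl1 was at 33.1 CPM in the cells at 5 and 37.5 CPM in the cells at 4, Ier3 at 247 and 268 CPM, and Fos at 1185 and 1205 CPM. Osm was at 45.7 CPM in the cells at 5 (38.2 to 54.3) and 76.1 CPM in the cells at 4 (67.5 to 85.6). Il6 was at 10.6 and 8.91 CPM and Hdc at 108 and 95.3 CPM, higher in the cells at 5 with overlapping intervals. Across cells of 0, 1 to 2, 3 to 4, 5 to 9, 10 to 19 and 20 or more Cxcl2 UMIs, Cxcl1 was at 9.04, 14.1, 35.1, 43.2, 60.2 and 153 CPM. Fos followed with 837, 985, 1161, 1215, 1302 and 1455 CPM, and Il6 with 6.30, 9.32, 10.7, 12.98, 15.5 and 32.7 CPM. Of 160 named genes outside the rule, 22 were higher at each step than at the one before, and 15 were lower at each step. Since these genes were chosen largely for their high or low ratios, their counts say little beside the 197 (3.93%) and 93 (1.86%) of all 5008 genes measured in close pairs. The 22 held Cxcl1, Il6, Fos, Dusp1, Nr4a1, Rgs1, Trib1, Nfil3, Hcar2 and Gpr65, and also the replication genes Mcm5, Mcm6, Mcm7, Lig1 and Smc2. Ier3, Osm and Hdc were not among them. Among those 15 Txnip was at 357, 330, 300, 286, 268 and 238 CPM over the 6 steps, and the lipid carrier gene Apoe at 9939.5 CPM without Cxcl2 and 6443 CPM at 20 or more UMIs.

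Depth also moved with these steps, at medians of 14712, 16360.5, 16966, 18472, 19695 and 21211 UMIs. Within the 1745 knockout cells of the middle depth range (14184 to 19343 UMIs), the steps had medians between 16455.5 and 17140 UMIs. There Cxcl1 was at 10.4, 14.6, 31.4, 43.5, 73.2 and 168 CPM, and Ier3 at 178 CPM without Cxcl2 and 541 CPM at 20 or more UMIs. Mki67 was at 4.88 CPM without Cxcl2 and 12.4 CPM at 20 or more UMIs in that range, far below the 43.9 CPM of all high cells. Gata6 was at 188 CPM without Cxcl2 (180.0 to 196) and 159 CPM at 20 or more UMIs (144 to 175), and it was lower at 4 of the 5 steps. Over all depths it lay between 168 and 177 CPM.

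**Figure D4:**
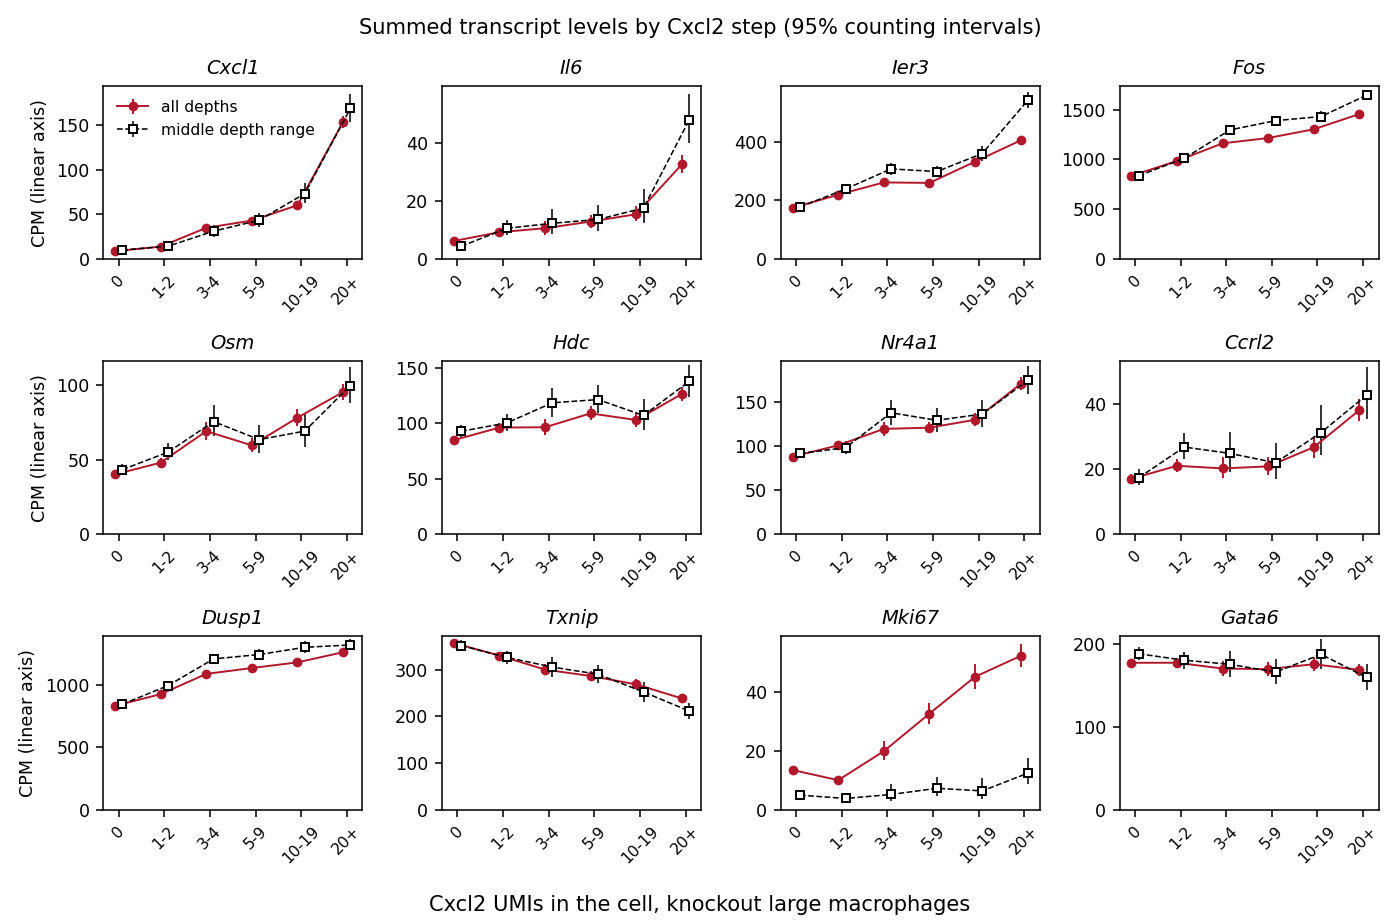
CPM on linear axes of 12 genes in knockout large macrophages by the number of Cxcl2 UMIs in the cell, for all cells (red circles) and for cells of 14184 to 19343 UMIs (open squares), with 95% counting intervals. Cxcl1 is at 153 CPM and Il6 at 32.7 CPM at 20 or more UMIs, Txnip is lower at each step, Gata6 lies between 168 and 177 CPM in all cells and between 159 and 188 CPM in the middle depth range, and Mki67 is low at every step in the middle depth range.

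The 5 marker genes given for these cells were also counted per cell. Of Osm, Hdc, Ier3, Cxcl1 and Fos, each cell thinned to 8000 UMIs, 4 or 5 were seen in 25.4% of Cxcl2 high and 9.27% of Cxcl2 zero cells of the close pairs. None or 1 was seen in 9.44% of high and 31.5% of zero cells. In wild type large macrophages the shares were 44.3% with 4 or 5 and 3.65% with none or 1. Each marker was seen more often in high cells by itself, which alone raises the share with 4 or 5, and whether the genes go together beyond that was not tested. Zero cells held these transcripts too. Fos was seen in 80.0% of them after thinning, against 96.0% of high cells, and Ier3 in 55.1%, against 75.1%.

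The same genes were then looked at in the wild type library, which the rule did not use. Since 4 wild type cells lacked Cxcl2, the cells with the highest Cxcl2 per 10000 UMIs (119.3 or more) were set against those with the lowest (38.1 or less). The 1049 cells a side were paired by nearest UMI total. Of these pairs 66 were within 2%, and the medians were 15397 UMIs in the highest and 14630 in the lowest set. Of 4607 genes, 27 (0.586%) were 2-fold or more above the lowest set and 8 (0.174%) below it, and at 1.5-fold 61 (1.32%) were higher and 17 (0.369%) lower. The median gene was at -0.06. In 958 wild type pairs within 2% of the total, 28 of 4597 genes were 2-fold or more higher and 11 lower. Of the 21 knockout genes, 20 were measured, all 20 were above 0, where 25.4% of all genes were, Il6 among them measured only through the highest set, and 10 were at least 1.5-fold higher, 47.6% of the knockout list and 16.4% of the wild type list. These 10 were Cxcl1, Il6, Ier3, Ccrl2, Fos, Ccl2, Pde4b, Gpr65, Zfp36 and Sgk1.

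The order of the genes differed between the libraries. Cxcl1 was at 1144 CPM in the highest and 175 CPM in the lowest wild type set, a ratio of 2.70, and Il6 at 74.0 and 17.3 CPM (2.04). Genes of NF-kB feedback stood higher in this list: 11 of 19 measured members were at least 1.5-fold higher with a median of 0.69. Tnfaip3, which encodes the ubiquitin-editing inhibitor A20, was at 215 CPM in the highest and 54.8 CPM in the lowest wild type set (1.95). In knockout cells it was at 7.80 CPM in Cxcl2 high and 2.38 CPM in Cxcl2 zero cells (1.38). Both levels were below the measuring limit, so the knockout list count leaves it out. Nfkbia was at 1762 CPM in the highest and 605 CPM in the lowest wild type set (1.54), against a knockout ratio of 0.36. Il10, an anti-inflammatory cytokine, and Ptgs2, the inducible prostaglandin synthase, were at 40.5 and 76.7 CPM in the highest and at 6.73 and 16.1 CPM in the lowest wild type set. In knockout cells Il10 had 13 UMIs in the high and 8 in the zero set of the close pairs (0.22), and Ptgs2 129 and 61 (0.85). Osm (0.30), Nr4a1 (0.21), Rgs1 (0.15) and Hdc (0.08) had smaller ratios in wild type than in knockout cells, where Osm was at 0.79, Nr4a1 at 0.74, Rgs1 at 0.70 and Hdc at 0.35. The highest and lowest wild type sets and the high and zero knockout sets differ in how far apart their Cxcl2 levels are. The rules that chose them differ too. Knockout cells were chosen by their count of Cxcl2 UMIs, which deep cells met more often than shallow ones. Wild type cells were chosen by Cxcl2 relative to their UMI total. The knockout ratios also come from close pairs, and the wild type ratios from pairs nearest in UMI total. These ratios are therefore set side by side only.

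**Figure D5:**
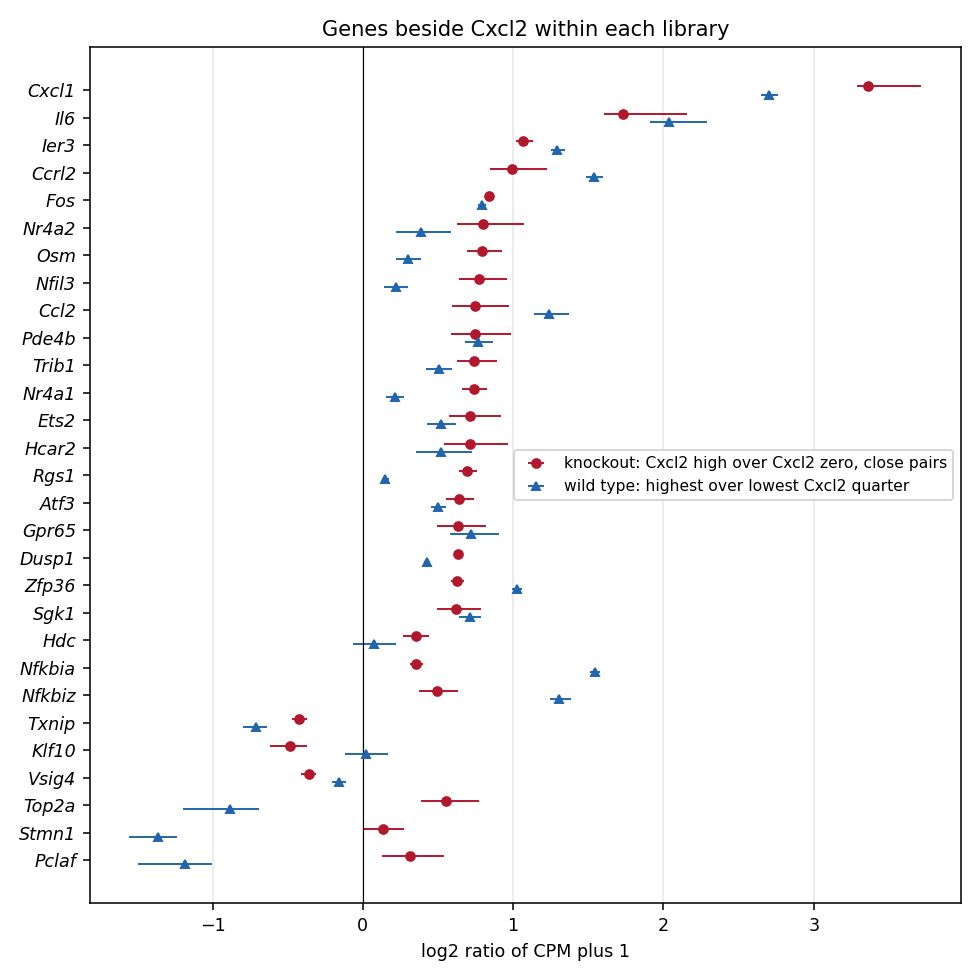
Log2 ratio of CPM plus 1 within each library for 29 genes, with 95% counting intervals of the plain ratio. Red circles compare Cxcl2 high with Cxcl2 zero knockout cells in close pairs. Blue triangles compare the wild type cells of highest with those of lowest Cxcl2 in pairs nearest in UMI total. Cxcl1 and Il6 lead in both, Nfkbia and Nfkbiz are farther right in wild type cells, and Top2a, Stmn1 and Pclaf lie on opposite sides of 0.

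The genes of the wild type list were also looked up in the knockout cells. Of the 27 wild type genes past 2-fold, 6 reached 20 CPM in both knockout sets of the close pairs (Nfkbia, Nfkbiz, Ier3, Irf1, Hk2 and Zfp36), with ratios of 0.31 to 1.07 and 2 of them, Ier3 and Zfp36, at 1.5-fold or more. Another 5 (Cxcl1, Il6, Ccrl2, Ccl2 and Tlr2) passed the measuring limit only through the Cxcl2 high set, so that no other direction was possible for them. The other 16 were below the limit in both sets. Gadd45b, a stress-induced gene, was at 2.86 CPM in Cxcl2 high and 3.57 CPM in Cxcl2 zero cells (-0.25), and Malt1, which encodes a protease of NF-kB signalling, at 12.6 and 13.2 CPM (-0.07). Il1b, an inflammasome cytokine gene, was at 16.9 CPM in Cxcl2 high and 4.90 CPM in Cxcl2 zero cells (1.60). The chemokine gene Ccl4 was at 8.89 CPM in high and 2.79 CPM in zero cells (1.38), and Ccl3 at 15.4 and 8.79 CPM (0.74).

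Levels in Cxcl2 high cells were below those of wild type cells for most of the 21 genes. Over all 4193 wild type large macrophages, 20 of the 21 genes were above their level in the Cxcl2 high cells of the close pairs (95.2%), where 21.9% of all 5008 genes were. Cxcl1 was at 103 CPM in high knockout cells and 624 CPM in wild type cells, Ccrl2 at 32.2 and 424 CPM, Rgs1 at 257 and 1534 CPM, and Dusp1 at 1248 and 2660 CPM. Fos came close, at 1381 CPM in high knockout and 1514 CPM in wild type cells. Hdc went the other way, at 114 CPM in high and 88.9 CPM in zero knockout cells and 45.4 CPM in wild type cells.

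Cells with the same number of Cxcl2 UMIs were then set side by side. Among cells of 20 to 49 Cxcl2 UMIs, 395 knockout and 519 wild type, Ier3 was at 332 CPM in knockout and 374 CPM in wild type cells, Il6 at 22.5 and 20.6 CPM, Fos at 1375 and 1253 CPM, and Gata6 at 169 CPM in both. These were close, while Cxcl1 was at 83.3 CPM in knockout and 190 CPM in wild type cells. Ccrl2 was at 30.7 CPM in knockout and 270 CPM in wild type cells, Tnfaip3 at 8.24 and 73.3 CPM, Rgs1 at 247 and 1524 CPM, and Atf3 at 134 and 392 CPM. Hdc was at 125 CPM in knockout and 48.2 CPM in wild type cells, and Spp1 at 643 and 3.53 CPM. The knockout cells of this range were deeper, with a median of 20073 UMIs against 13291 UMIs in wild type cells, so that equal UMIs meant 1383 CPM of Cxcl2 in knockout and 2392 CPM in wild type cells. At nearer Cxcl2 levels, 141 knockout cells of 50 to 99 UMIs (2704 CPM of Cxcl2) stood beside the 519 wild type cells of 20 to 49 UMIs. There Cxcl1 was at 177 CPM in knockout (163 to 191) and 190 CPM in wild type cells (180.1 to 200.1), with overlapping intervals. Ier3 was at 526 CPM in knockout and 374 CPM in wild type cells, and Il6 at 33.9 and 20.6 CPM, higher in knockout cells. Ccrl2 at 34.5 CPM in knockout and 270 CPM in wild type cells, Tnfaip3 at 10.3 and 73.3 CPM, Rgs1 at 258 and 1524 CPM, and Atf3 at 133 and 392 CPM remained lower. Knockout cells of 20 to 49 UMIs were also set beside wild type cells of 10 to 19 UMIs (976 CPM of Cxcl2). There Cxcl1 was at 83.3 CPM in knockout and 122 CPM in wild type cells. Ier3 was at 332 and 367 CPM, and Il6 at 22.5 and 16.5 CPM. Knockout cells of 10 to 19 UMIs (639 CPM of Cxcl2) stood beside wild type cells of 5 to 9 (498 CPM). Cxcl1 was at 60.2 and 100.4 CPM, Ier3 at 332 and 276 CPM, and Il6 at 15.5 and 6.79 CPM. Cxcl1 was thus lower in knockout cells in each of these pairings, with overlapping intervals at 177 against 190 CPM. The order of Ier3 depended on the pairing. With 1 library per genotype, genotype and library cannot be told apart.

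Markers of other cell types were at 0 or a few CPM for some lists and higher for others. In all pairs, B cell markers summed to 4.34 CPM in Cxcl2 high and 5.37 CPM in Cxcl2 zero cells (5 of 9 and 7 of 9 genes seen), and T and NK cell markers to 0.241 and 0.258 CPM (4 of 11 and 2 of 11). Of the neutrophil list, 10 of 13 genes were seen in high and 9 of 13 in zero cells, summing to 86.0 and 90.8 CPM, led by Csf3r, with Ly6g and Ngp at 0 in both. Mast cell and basophil markers were 0 of 12 in high and 3 of 12 in zero cells (0.221 CPM), and mesothelial and fibroblast markers 0 of 13 and 2 of 13 (0.0736 CPM). Platelet markers summed to 14.2 CPM in high and 12.6 CPM in zero cells (4 of 8 and 2 of 8). Of the monocyte list 9 of 10 genes were seen in each set, with sums of 240 CPM in high and 170 CPM in zero cells, led by Nr4a1, one of the 21 genes, and with Ly6c2 at 0. Dendritic cell markers summed to 209 and 200 CPM (7 of 10 each), led by Bst2 with Flt3 at 0, and eosinophil markers to 1943 and 1963 CPM (3 of 8 each), almost all from Alox15, with Prg2 and Epx at 0. The part of these markers in the ratios was not tested. Barcodes with the highest doublet scores were 122 of 1548 high (7.88%) and 77 of 2113 zero cells (3.64%), and without them the ratio of Cxcl1 was 3.29 and that of Il6 1.65 in nearest-total pairs.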

How the data were processed

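The deposited matrices give UMI counts by gene and barcode for called cells only. Their file headers name Cell Ranger 6.1.2 as the software, and the labels name 10x Single Cell 3' v3 chemistry. The submitters' processing notes name Seurat 4.1.0 and mm9, while the gene identifiers follow GENCODE for GRCm38. Reads were not used here. The members and gene lists were chosen with earlier results of these data known.

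Cells were filtered as described above. Counts were summed over each set, scaled to CPM, and compared as log2 of CPM plus 1, with exact Poisson, conditional binomial and Clopper-Pearson 95% intervals for counting error. There was 1 library per genotype, so no model across samples could be fitted and no p-value is given. Calls were made at 2-fold, and at 1.5-fold as a rule added after the data were seen, as were the pairs within 2% and the steps within the middle depth range. Depth pairing took the deepest high cells first, each with the nearest unused zero cell. Scrublet's automatic threshold marked 1 of 6360 knockout barcodes (0.0157%) and did not work. Doublets were therefore kept, and 324 barcodes (5.09%) with the highest scores were removed in an alternative. B cell barcodes held at least 5 UMIs over Cd79a, Cd79b and Ms4a1, no Adgre1 UMI, and passed the gene and mitochondrial filters. One marker gene is not reported here and was left out of the marker lists.

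Named genes were taken from both ends of the ratios in all pairs, 15 from each end at 20 CPM or more in the higher set, the 5 marker genes, and up to 5 of each of 28 lists with the largest absolute ratio. Rule genes, mitochondrial, ribosomal, immunoglobulin, haemoglobin and sex-linked genes and unnamed gene models were left out of the first part. The 2-fold calls and the ratio intervals were tried on summed counts simulated from 1 pooled profile. That simulation held no single cells, no spread between cells and no depth pairing, so it does not cover these steps. Promoters were searched first for a stricter NF-kB motif and then for the general consensus, a change made with the first result known. Scaling factors, and nothing else, came from edgeR 4.0.16 and DESeq2 1.42.0 under R 4.3.3. All other steps ran on scanpy 1.11.5, pandas 2.3.3, scipy 1.17.1, numpy 2.4.6 and matplotlib 3.10.9 in Python 3.11.15. The random seed was 0.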

Additional observations from a re-analysis of the deposited data

Results flagged for a closer look

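Some cell cycle genes had ratios of opposite sign with Cxcl2 in the 2 libraries, but the knockout sign depended on the setting. Top2a had a log2 ratio of 1.47 in Cxcl2 high over Cxcl2 zero knockout cells of the 1548 pairs and -0.89 in wild type cells of highest over those of lowest Cxcl2. Pclaf, a partner of the replication clamp PCNA, was at 1.34 and -1.18, and Stmn1, which destabilises microtubules, at 1.14 and -1.36. In pairs within 2% of the same depth the knockout ratios were 0.56, 0.32 and 0.13, and the wild type ratios -1.14, -1.44 and -1.53. The knockout cells were chosen by their count of Cxcl2 UMIs, and the wild type cells by Cxcl2 relative to their UMI total. The difference between the libraries was not tested. What depth contributes to that difference was not tested beyond these pairs, and what the differing rules contribute was not tested.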

How the results depend on the processing

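Cxcl1, Il6, Ier3, Ccrl2, Fos, Osm and Hdc kept the direction of their ratio under all 19 other settings, and Cxcl1 ran from 2.12 to 3.52 and Il6 from 1.07 to 1.89. The number of genes at least 2-fold higher (10) was 3 with weighted depth bins, in pairs within 2% of depth, in such pairs without cycling cells and at a floor of 50 CPM, 2 without cycling cells, 5 each in the shallowest and the middle depth range, 17 with thinned cells, 22 at a floor of 10 CPM, 43 at 1.5-fold and 46 with no floor. The number at least 2-fold lower (1) was 0 with matching on UMI total and mitochondrial share, in the middle depth range and at 50 CPM, 3 each in the shallowest and the deepest depth range, 4 against cells of 1 to 4 Cxcl2 UMIs and at 10 CPM, and 9 with no floor. The share of Cxcl2 high cells (29.6%) was 28.3% without a UMI minimum. In the wild type library the count of 27 was 61 at 1.5-fold, and the count of 8 lower was 17 at 1.5-fold and 4 with wider sets of highest and lowest cells. Among the genes past 2-fold, the sign turned for Top2a (-0.17) and Mki67 (-0.12) in the shallowest depth range. It also turned for Pclaf without cycling cells (-0.11, and -0.076 in close pairs) and for Hist1h1b with weighted bins (-0.18). Stmn1 turned in close pairs without cycling cells (-0.028). Hbb-bs turned with matching on mitochondrial share (0.36) and in the middle depth range (0.010). Other named genes with smaller ratios crossed 0 over the settings too. Among them were Mcm7 (-0.14 to 1.19), Spp1 (-0.42 to 0.22) and Chil3 (-0.24 to 0.40). The causes were not tested. An NF-kB motif was in 7 of 16 genes by the general consensus and in 2 by the stricter form. TMM and median-of-ratios scaling each moved all ratios by -0.01. No paired analysis was possible because each genotype had 1 library. No replicate could be left out for the same reason.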

Other observations

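Among the barcodes of the knockout library that failed the rule by 5 or more class II UMIs per 10000 but passed every other filter, 207 of 692 (29.9%, exact binomial 95% interval 26.5 to 33.5%) held at least 5 Cxcl2 UMIs, against 29.6% of the large macrophages. In the wild type library the shares were 98.4% of 1178 such barcodes and 97.0% of the large macrophages. Spp1 and Timd4, which mark other subsets of these cells, were seen at 5 or more UMIs in 28.0% and 21.9% of Cxcl2 high cells and in 32.5% and 21.8% of Cxcl2 zero cells of the close pairs.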
